A study of Bos taurus with 8 samples.

Results

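The comparison described here set gp120-treated cultures of primary bovine Müller glia against untreated cultures, with 3 gp120 arrays and 2 control arrays out of the 8 arrays of the study. The arrays were chosen by their sample titles, gp120 A, B and C and control A and B. Per the labels the cells came from the bovine eye, were kept in DMEM for 18 to 21 days and were harvested 24 h after treatment. The gp120 dose was 60 ng/ml, and the titles give the controls no protein. The treatment text is the same for every sample and names gp120 and TAT (100 ng/ml) together, so whether any gp120 culture also received TAT cannot be told from it. The groups followed the titles. The remaining 3 arrays, titled TAT, entered the main statistical fit only to help estimate the spread between arrays. In the fits with letter as a block they also helped to set the letter effects, and so the gp120 minus control differences. The labels do not say whether letters A, B and C mark separate cultures, animals or days, so every p-value rests on how far these arrays lay apart, which may be technical spread alone.

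The envelope surface glycoprotein of HIV-1, gp120, binds CD4 and then a chemokine receptor such as CXCR4 on the cells that the virus enters. Shed gp120 can also act on cells that are not infected. Müller glia span the whole retina, recycle glutamate through glutamine synthetase (GLUL), buffer water and ions and, when stressed, release cytokines and growth factors. The question of the comparison was which genes of these cells differ after a day with gp120.

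The labelled cell type was set against marker genes on the 5 arrays. Of 26 Müller glia markers with a probe, 18 were well above background on all 5 arrays, among them GLUL, VIM, the glutamate transporter SLC1A3, AQP4 and APOE. RLBP1, a retinaldehyde-binding protein listed here as a marker of both Müller glia and retinal pigment epithelium, was well above background on 1 of the 5 arrays, and CA14, RGR and SLC1A2 on none. The extraction text of the labels speaks of astrocytes, whose defining filament protein GFAP was well above background on 1 array. Among 20 astrocyte markers with a probe, 13 were well above background on all 5 arrays and 4 on none. Of 26 microglia and macrophage markers, 25 were well above background on all 5 arrays, as were 15 of 17 fibroblast and 14 of 15 pericyte and smooth muscle markers. Of 32 retinal neuron and photoreceptor markers, 10 were, and 15 were above background on no array. The counts on all 5 arrays were 11 of 17 endothelial, 7 of 17 retinal pigment epithelium and 6 of 15 oligodendrocyte and Schwann markers. Each marker was counted by its probe above background on the most arrays. Over all spots, 55.46% to 61.26% were well above background on each of the 5 arrays. No matching share over all genes was computed, so these counts do not name a cell type. The cultures are therefore called by their label, and signal of markers of other cell types was present in both groups.

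Each sample was read with 1 dye on 1 array. Spots well above background made up 59.57% and 61.26% of control A and B and 59.14%, 56.76% and 55.46% of gp120 A, B and C. Control A, control B and gp120 A were read in one scan with a detector at 430.754 V, and gp120 B and C in another at 471.164 V. Scan and treatment are thus confounded in part, and only gp120 A can be set against controls within a scan. All levels below are log2 signals relative to the 75th percentile of their array, and all differences are log2 differences, gp120 minus control. A gene was tested where its probe was well above background on all arrays of at least 1 of the groups. This left 11980 genes, 11106 of them well above background on all 5 arrays.

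In limma, 0 of 11980 genes (0%) passed an adjusted p of 0.05, and the lowest adjusted p was 0.998. At an unadjusted p under 0.05 there were 335 genes, 111 higher (0.927% of genes tested) and 224 lower (1.87%), where 599 are expected if no gene differs. The number depended on single arrays. It was 187 without control A, 415 without control B, 1165 without gp120 A, 219 without gp120 B and 156 without gp120 C. With letter as a block 0 genes passed (lowest adjusted p of 0.314), and 718 had an unadjusted p under 0.05, 263 higher (2.2%) and 455 lower (3.8%). The median 95% interval of a difference reached 0.695 to each side, and 0.506 with the block, for single genes before adjustment. Differences over 2-fold also failed adjustment, such as that of FMOD at 2.18 (adjusted p of 0.998 in limma). With these arrays, differences above and below 2-fold were thus hard to detect. No gene is therefore said to have changed. The genes and gene groups below are described by their values, and each group by how many of its members were higher or lower, beside the same share over all genes: 47.7% of genes were higher with gp120 and 52.3% lower, with a median difference of -0.015. That share depended on the filter, since 785 genes entered it through the controls alone and 89 through gp120 alone. It was 49.6% higher among genes well above background on all 5 arrays and 55.6% with no filter.

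Each value comes from a probe of 60 bases. The probes shown here belong to genes described below, and their letters place the exact stretch that each value measures. They are given in lower case with no part marked, as the array files print them, with positions in the bovine build HGSC Btau_3.1 as the array files give them. The IFIT2 probe lies at chr26:11431248-11431307 (plus strand), SAMD9 at chr4:10710581-10710640 (minus), IL7R at chr20:40570148-40570207 (minus) and BCL2 at chr24:64012021-64012080 (minus). The IL15 probe spans chr17:17109847-17113345 (minus), a stretch longer than the probe. The probe of MCM6, a gene of the replicative helicase, lies at chr2:64484680-64484739 (plus).
IFIT2: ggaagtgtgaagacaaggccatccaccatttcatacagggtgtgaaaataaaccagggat
SAMD9: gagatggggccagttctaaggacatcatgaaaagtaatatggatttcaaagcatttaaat
IL7R: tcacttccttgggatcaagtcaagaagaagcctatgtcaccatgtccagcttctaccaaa
IL15: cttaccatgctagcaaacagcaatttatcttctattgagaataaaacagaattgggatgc
BCL2: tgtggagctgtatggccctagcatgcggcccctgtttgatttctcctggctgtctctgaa
MCM6: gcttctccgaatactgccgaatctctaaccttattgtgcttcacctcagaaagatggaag

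Interferon-stimulated genes, which encode antiviral effectors, nucleic acid sensors and the factors that switch them on, were lower with gp120 in 42 of 53 tested members, with a median difference of -0.22. Of the 51 members well above background on all 5 arrays 40 were lower, with a median of -0.21. The antiviral enzyme RSAD2 (viperin) read 0.325 and -2.04 in control A and B and -2.29, -3.52 and -3.755 in gp120 A, B and C. Its difference was -2.33 (SE 0.96, unadjusted p = 0.0429). IFIT2, which binds viral RNA and restrains its translation, read 0.34 and -1.67 in the controls and -1.80, -2.83 and -2.31 with gp120 (difference -1.65, SE 0.59, unadjusted p = 0.025). For both genes every gp120 array lay below both controls, but gp120 A was close to control B, and the 2 controls lay farther from each other than that. SAMD9, an antiviral translation inhibitor, was steadier between the controls, at -1.56 and -1.29, and read -2.02, -3.07 and -2.84 with gp120 (difference -1.22, SE 0.33, unadjusted p = 0.00631, on both of its probes). EIF2AK2, the kinase PKR that halts translation on sensing double-stranded RNA, read 1.16 and 0.74 in the controls and 0.61, 0.53 and 0.06 with gp120 (difference -0.55, SE 0.26). These 4 were among 8 members of the list whose gp120 arrays all lay below both controls, while 0 lay above. Over all genes 7.69% lay below and 5.35% above.

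Within letters, 48 of the 53 interferon-stimulated genes were lower in pair A (54.1% of all genes were lower there) and 35 in pair B (53.4% of all genes). In both pairs 30 were lower (27.3% of all genes) and 0 were higher (19.7%). The median was -0.63 in pair A, -0.20 in pair B and -0.12 for gp120 C against the mean of the controls, with 29 lower (48.7% of all genes). With scan as a block it was -0.24, with 38 lower. With letter as a block it was -0.27, with 49 lower, and with both blocks -0.59, with 48 lower. Over the group means, the size and the direction of the list median depended on 1 control. Control A was above control B for 44 of the 53 genes, by a median of 0.77, and without control A the list median was 0.07 with 23 of 53 genes lower, against -0.65 and 47 lower without control B. The master regulator IRF7, at 3.94 and 2.66 in the controls and 3.103, 2.35 and 2.56 with gp120, shows this overlap, as does IFIT1 (-1.51 and -3.28 against -2.97, -3.55 and -3.69). ISG15, a ubiquitin-like protein induced by interferon, read 5.18 and 4.18 against 4.10, 4.63 and 4.685, and MX1, a dynamin-like antiviral GTPase, 5.71 and 4.39 against 4.82, 4.50 and 5.10. Both were lower in pair A and higher in pair B. Beside this group, the microglia and macrophage markers had medians of -0.10 in pair A and -0.01 in pair B, and their mean level was 4.01 and 3.66 in the controls and 4.09, 3.55 and 3.95 with gp120. The part these cells had in the result was not tested, and in RNA of a whole culture fewer cells of a type and less RNA per cell cannot be told apart.

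**Figure D1:**
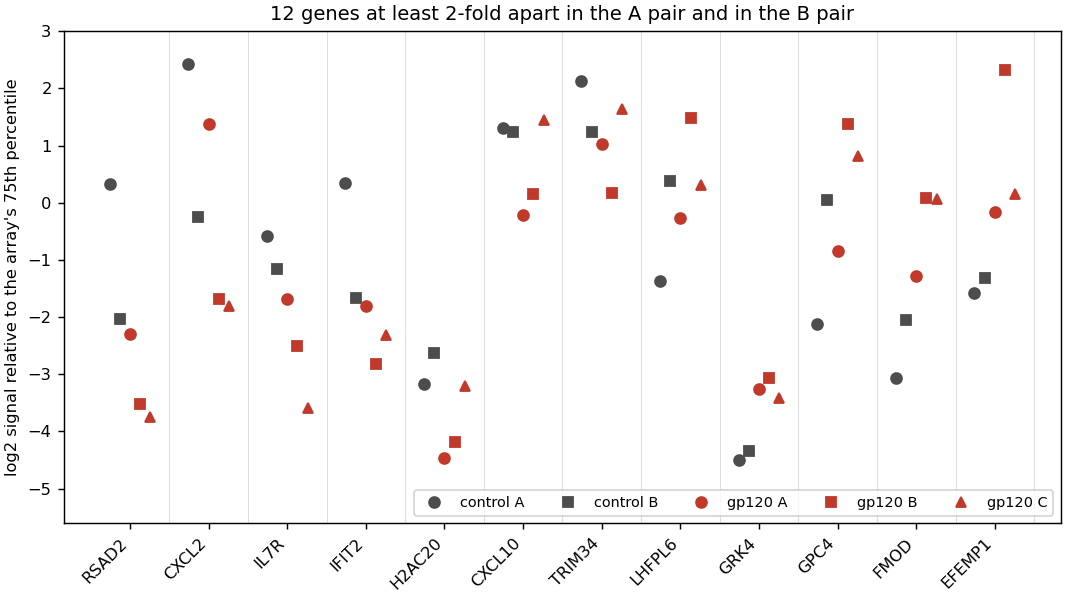
Log2 signal relative to the 75th percentile of the array (vertical axis) on each of the 5 arrays for the 12 genes that were at least 2-fold apart, in 1 direction, in both same-letter pairs. Grey symbols are controls and red symbols gp120, with circles for letter A, squares for B and triangles for C. RSAD2 ran from 0.325 in control A to -3.755 in gp120 C, whereas gp120 C lay above both controls for CXCL10.

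A stricter view asked for genes at least 2-fold apart in the same direction in both same-letter pairs. There were 16 such genes higher (0.134% of genes tested) and 25 lower (0.209%). The lower ones made up 10.25% of the genes 2-fold lower in pair A and 5.12% of those in pair B. The plot of the 12 genes at least 2-fold apart in both pairs shows those with a gene symbol that were well above background on all 5 arrays; they were singled out after their values were seen. Lower were RSAD2, IFIT2, CXCL10, the neutrophil chemokine CXCL2, the interleukin-7 receptor chain IL7R, the histone gene H2AC20 and TRIM34. TRIM34 had this direction on 1 of its 2 probes, and its gp120 C array lay above control B. IL7R read -0.59 and -1.16 in the controls and -1.675, -2.50 and -3.59 with gp120, with no overlap (difference -1.71, SE 0.67, unadjusted p = 0.0363). CXCL2 read 2.43 and -0.25 against 1.38, -1.68 and -1.81, so gp120 A lay above control B. Higher in both pairs were LHFPL6, the receptor kinase GRK4, the proteoglycans GPC4 and FMOD, and the matrix glycoprotein EFEMP1. The groups overlapped for LHFPL6 and GPC4, with gp120 A below control B.

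Cytokines and chemokines were lower with gp120 in 22 of 25 tested members, with a median of -0.68, the lowest of the 36 lists examined. Of the 23 members well above background on all 5 arrays 20 were lower, with a median of -0.65. IL15, which sustains natural killer cells and memory T cells, read -3.03 and -3.825 in the controls and -4.34, -5.05 and -4.72 with gp120 (difference -1.28, SE 0.36). All 3 gp120 arrays lay below both controls, but only 1 of them was well above background and the gene passed the filter through the controls alone, so no p is given. IL18, an interferon-gamma inducing cytokine, read 3.01 and 2.21 against 2.28, 1.15 and 1.535 (difference -0.955, SE 0.40, unadjusted p = 0.0471). Its gp120 A array lay between the controls. CXCL10, the chemokine that draws T cells through CXCR3, read 1.31 and 1.24 against -0.22, 0.15 and 1.45. It was 1.53 lower in pair A and 1.09 lower in pair B, and the level of gp120 C was the highest of the 5. CXCL11, a ligand of the same receptor, read -3.06 and -2.25 against -2.81, -5.76 and -3.30, and was low mainly in gp120 B. It was well above background on 2 of the 3 gp120 arrays and passed the filter through the controls alone.

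The classical inflammatory mediators differed between letters more than between groups. CXCL8, the main neutrophil chemokine, read 4.19 and 2.55 in the controls and 3.53, 0.43 and -0.21 with gp120 (difference -2.12, SE 1.57). Both pairs were lower, by 0.66 and 2.12, yet the arrays of each group lay far apart, and control B lay below gp120 A. IL1B read 3.29 and 0.80 against 3.03, 0.08 and -0.08 (difference -1.03, SE 1.44), and TNF 1.215 and 0.21 against 1.15, -0.745 and -0.22 (difference -0.65, SE 0.79). IL6 read 0.92 and -1.94 against -0.095, -1.50 and -1.30, lower in pair A and higher in pair B. CCL2, which recruits monocytes, read 6.87 and 5.73 against 5.85, 6.82 and 4.44, also in opposite directions in the 2 pairs. Across the list, control A was above control B for 22 of 25 genes (51.6% of all genes) and gp120 A above gp120 B for 21 (49.2% of all genes), by medians of 1.001 and 1.13. Within letters, 16 of the 25 were lower in both pairs (27.3% of all genes) and 1 higher (19.7%). The medians were -0.58 in pair A, -0.47 in pair B and -0.94 for gp120 C. Without control A the median was -0.12, with 9 of 25 higher. In the fit with scan as a block, which sets gp120 A against both controls, it was 0.07 with 14 of 25 higher. With letter as a block it was -0.42 with 2 of 25 higher, and with both blocks -0.67 with 1 of 25 higher. The heat map of cytokines by array shows the gp120 B and C columns as the low ones. With letter as a block, limma gave IL18 (-0.97, unadjusted p = 0.00301) and CXCL10 (-1.18, unadjusted p = 0.00251), both with the sign they had without it, and neither passed adjustment.

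**Figure D2:**
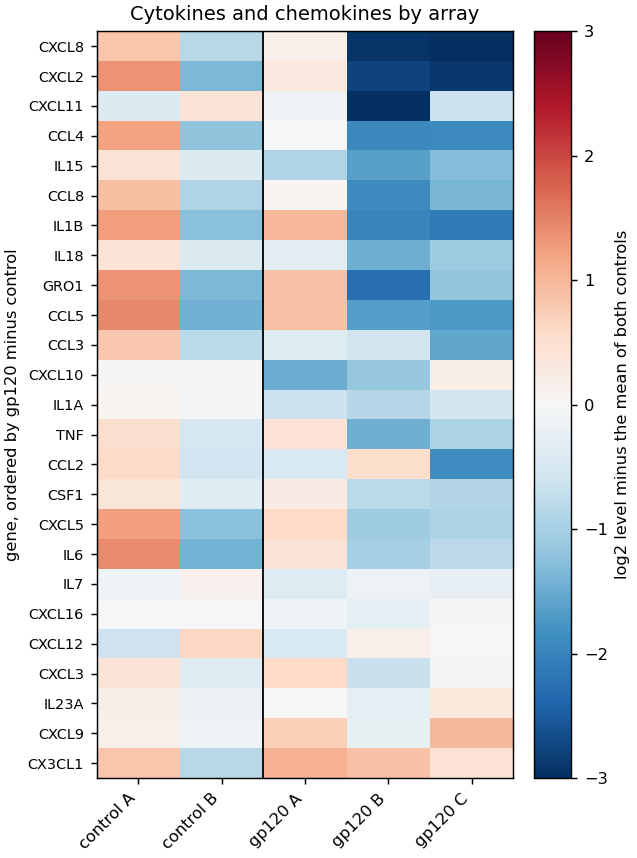
Log2 level of each of the 25 tested cytokine and chemokine genes on each array, minus the mean of both controls, ordered by the gp120 minus control difference. Blue is lower and red higher, and 2 values lie beyond the ends of the colour scale at -3 and 3. Most genes are blue in gp120 B and gp120 C, and control A and gp120 A are redder than control B for genes such as IL1B and CCL5.

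Receptors that gp120 is known to bind were examined next. CXCR4, a coreceptor of the virus, read 4.01 and 3.48 in the controls and 3.72, 2.94 and 3.37 with gp120, a difference of -0.40 (SE 0.295, unadjusted p = 0.215). It was lower in both pairs, by 0.28 and 0.54, and the groups overlapped. CD4, the primary receptor, read 0.36 and 0.06 against 0.66, 1.065 and 0.02 (difference 0.37, SE 0.43). It was higher in both pairs, and gp120 C lay below both controls. The probes of CCR3, CD209 and GPR15 were above background on no array. The chemokines CCL3, CCL4 and CCL5 differed by -0.83, -1.28 and -0.835, each with control A as the highest array. Of the 11 tested receptors and ligands 4 were higher.

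Genes of the complement system, the cascade that tags cells for removal, were higher with gp120 in 17 of 21 tested members, with a median of 0.37. The serine protease CFI, which cuts activated C3b and C4b and so restrains the cascade, read -2.135 and -1.84 in the controls and -1.49, -0.12 and -0.09 with gp120 (difference 1.42, SE 0.66, unadjusted p = 0.0647, on both probes). Every gp120 array lay above both controls. CD59, which blocks the membrane attack complex, read -0.26 and -0.51 against -0.19, 0.56 and 0.88, and gp120 A was only 0.07 above control A. The starter proteases C1R (-0.09 and 0.08 against 0.87, 0.385 and 1.40) and C1S (2.125 and 2.285 against 2.60, 2.725 and 3.785) were also higher on every gp120 array. So was CFB of the alternative pathway, at 0.71 and 0.41 against 0.999, 0.85 and 1.67. These 5 were the members whose gp120 arrays all lay above both controls (5.35% of all genes did so), and 1, the membrane cofactor CD46, lay below. C1QC, a chain of the recognition molecule C1q, read 4.06 and 2.93 against 4.30, 3.635 and 4.74, with overlap. CD55, a decay-accelerating inhibitor, went the other way at -0.13 and -0.50 against -0.47, -2.05 and -0.74, on 1 of its 2 probes.

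The complement difference was largest in gp120 C, whose median was 0.78 above the mean of the controls, against 0.26 in pair A and 0.22 in pair B. Without gp120 C the list median was 0.17, without control B 0.12, and with letter as a block 0.13. In both pairs 9 of 21 were higher (19.7% of all genes) and 2 lower (27.3%). Of its members, C1QA, C1QB and C1QC are also markers of microglia. Of all 26 microglia and macrophage markers 12 were higher over the group means (median -0.003), and 16 were higher in gp120 C (median 0.10). Their part in the complement difference was not tested. Antigen presentation genes, which load peptides onto MHC molecules, also stood highest in gp120 C. They were higher in 22 of 25 cases (median 0.15), in 24 of 25 for gp120 C, but in 14 of 25 in pair A and 12 of 25 in pair B.

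Extracellular matrix genes were higher with gp120 in 35 of 43 tested members, with a median of 0.32. EFEMP1 (fibulin-3), a glycoprotein of elastic fibres and basement membranes, read -1.57 and -1.31 in the controls and -0.17, 2.315 and 0.16 with gp120 (difference 2.21, SE 0.76, unadjusted p = 0.0203, on both probes). No array overlapped, and gp120 B stood well above the other 2. FBN1, the main protein of microfibrils, read -0.85 and -0.85 against -0.58, 0.16 and 0.015 (difference 0.72, SE 0.26, unadjusted p = 0.0276). FBLN2 (fibulin-2) read -4.62 and -4.84 against -4.42, -0.84 and -1.73 with gp120. It was well above background on 1 of the 2 controls and passed the filter through gp120 alone, so no p is given, and gp120 A was 0.20 above control A. COL1A1, a chain of type I collagen, read 2.975 and 3.61 against 3.78, 4.27 and 3.72 (difference 0.63, SE 0.28, unadjusted p = 0.0575, on all 5 of its probes). With FBN1, EFEMP1, FBLN2 and the matricellular protein THBS2 it made up the 5 of 43 members that did not overlap between groups. All 5 lay with gp120 above, as did 5.35% of all genes, while 7.69% of all genes lay below. FBLN2 entered through gp120 alone, so its place among the 5 carries no weight. Of the 40 members well above background on all 5 arrays 33 were higher, with a median of 0.31. FMOD (fibromodulin), a small proteoglycan that binds collagen and sits outside the list, read -3.06 and -2.055 against -1.28, 0.09 and 0.07 (difference 2.18, SE 0.65, unadjusted p = 0.0106, and with the block 1.82, unadjusted p = 0.00034 in limma).

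The matrix genes were higher in 36 of 43 cases in pair A (45.9% of all genes were higher there) and in 27 of 43 in pair B (46.6%). Both pairs had 23 higher (19.7% of all genes) and 3 lower (27.3%). The medians were 0.24, 0.22 and, for gp120 C, 0.45 (34 of 43 higher, against 51.3% of all genes). Without control A the median was 0.02, and with scan as a block it was -0.02, with 21 of 43 higher. Among the interstitial collagens, COL1A1 differed by 0.63 (SE 0.28), while COL1A2 differed by 0.10 (SE 0.23) and COL3A1 by 0.05 (SE 0.28). Fibroblast and stromal markers, which share 8 genes with the list, were higher in 13 of 15 cases (median 0.23). Their mean level was 2.10 and 2.02 in the controls and 2.22, 2.31 and 2.38 with gp120. Pericyte and smooth muscle markers were higher in 12 of 14 cases (median 0.36), but their mean level followed the letter, at 1.87 in control A and 2.20 in gp120 A, and 3.58 in control B and 3.85 in gp120 B. The part of these cells in the matrix difference was not tested.

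Cell cycle genes were higher with gp120 in 44 of 53 tested members, with a median of 0.34, and all 53 overlapped between groups (5.35% of all genes lay above and 7.69% below without overlap). The 4 members with the smallest p-values are given here. CDC6, which helps to load the helicase onto origins, read -4.28 and -4.06 in the controls and -4.31, -2.76 and -3.10 with gp120. The helicase subunits MCM3 (-1.075 and -0.33 against -0.76, 0.31 and 0.50), MCM6 (0.94 and 0.92 against 0.93, 1.69 and 1.42) and MCM5 (2.01 and 2.33 against 2.13, 3.01 and 2.97) showed one pattern, with gp120 A at the level of the controls and gp120 B and C above both. The differences of these 4 were 0.42 to 0.78 with unadjusted p-values of 0.114 to 0.147 in limma. Of other licensing genes, MCM7 differed by 0.49 (SE 0.40), MCM4 by 0.18 (SE 0.43) and CDT1 by -0.05 (SE 0.20). The median of the list was 0.07 in pair A, 0.40 in pair B and 0.56 for gp120 C. Here the scan moves with the result: gp120 B and C were read in the other scan, and with scan as a block the median was -0.27, with 7 of 53 higher. Letter moves with it too. Control A was above control B for 5 of the 53 genes, with a median of -0.73 for control A minus control B. Without control A the list median was -0.04, with letter as a block 0.21 and with both blocks 0.006. The mitotic kinesin KIF20A (-2.36 and 0.635 against -2.29, 1.14 and 0.63) shows how far the 2 controls stood apart. The parts of scan and letter in the cell cycle difference cannot be told apart from that of gp120 with these arrays.

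Targets of p53 and regulators of apoptosis were lower with gp120 in 22 of 30 tested members, with a median of -0.20. Of the 28 members well above background on all 5 arrays 20 were lower, with a median of -0.18. BCL2, which holds back the mitochondrial path of cell death, read 2.18 and 2.54 in the controls and 1.98, 1.115 and 1.46 with gp120 (difference -0.84, SE 0.29, unadjusted p = 0.021), with no overlap. ZMAT3, an RNA-binding protein induced by p53, read -1.41 and -1.51 against -1.79, -2.17 and -2.22 (difference -0.60, SE 0.24, unadjusted p = 0.036). MDM2, the ubiquitin ligase that turns p53 over, read 3.60 and 2.775 against 3.18, 1.95 and 1.67 (difference -0.92, SE 0.48), with overlap. GADD45A, a damage response gene, read 4.33 and 4.67 against 4.23, 3.76 and 4.04 (difference -0.49, SE 0.27), with no overlap. The list thus holds both a survival factor and damage response genes among its lower members. CDKN1A, the p53-induced cell cycle inhibitor, differed by -0.18 (SE 0.20), and BAX and BBC3, which promote cell death, by 0.33 (SE 0.455) and -0.01 (SE 0.24). In both pairs 11 of 30 were lower (27.3% of all genes) and 3 higher (19.7%). Without control A the list median was 0.06, and with scan as a block 0.05. With letter as a block it was -0.125, with 22 of 30 lower, and with both blocks -0.155, with 21 lower. The pair medians were -0.16 in A and -0.085 in B.

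**Figure D3:**
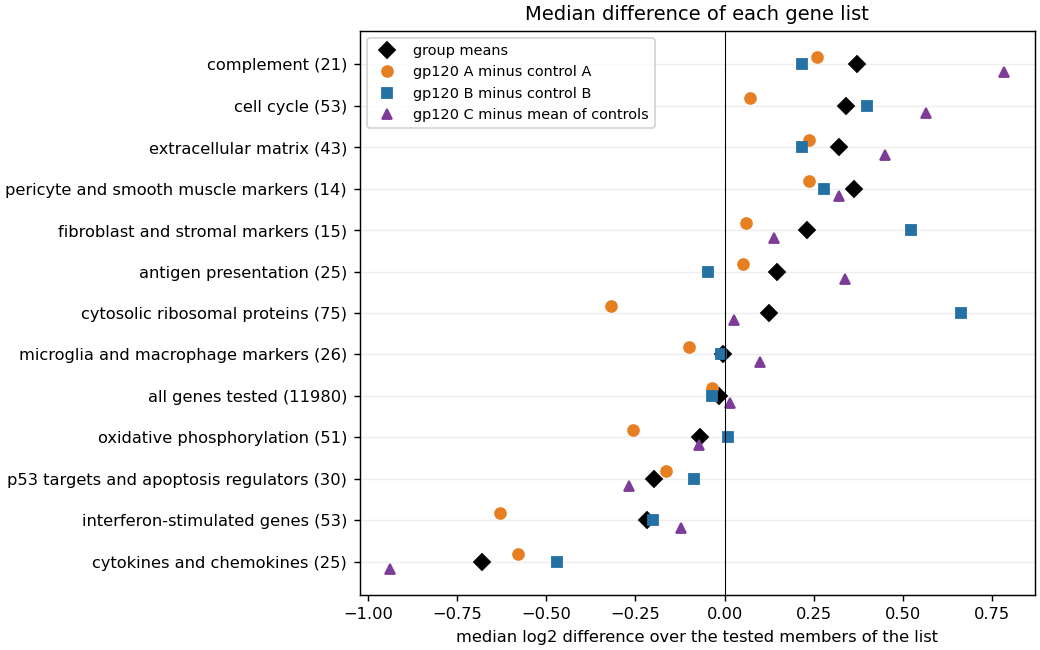
Median log2 difference over the tested members of 12 gene lists and of all genes, with the number of members in brackets. Black diamonds give the group means, orange circles gp120 A minus control A, blue squares gp120 B minus control B and purple triangles gp120 C minus the mean of the controls. The cytokine list lies below 0 in all 4 and the ribosomal list lies at -0.32 in pair A and 0.66 in pair B.

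The same-letter pairs were compared over all genes. The difference of pair A and that of pair B had the same sign for 47.0% of the 11980 genes, and their Pearson r across genes, which are not independent replicates, was -0.04. The 2 pairs share no array. The spread of the differences across genes was 0.43 (SD) in pair A and 0.59 in pair B. At least 2-fold higher were 152 genes in pair A and 374 in pair B, and at least 2-fold lower were 244 and 488. Opposite 2-fold differences were seen for 14 genes higher in A and lower in B and for 18 the other way round. Over all genes opposite signs were thus more frequent than matching ones. At 2-fold the matching ones were more numerous, with 16 genes higher and 25 lower in both pairs (0.134% and 0.209% of genes tested).

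The clearest case of opposite directions was the cytosolic ribosome. Of 75 genes of ribosomal proteins, 67 were lower in pair A and higher in pair B, as were 26.9% of all genes. The medians were -0.32 in pair A, 0.66 in pair B and 0.03 for gp120 C. RPSA, a protein of the small subunit, read 6.415 and 5.20 in the controls and 5.64, 6.705 and 5.81 with gp120. RPL14, of the large subunit, read 6.38 and 5.38 against 5.615, 6.69 and 6.24. Both were picked after their values were seen, and both show control A high, control B low, gp120 A low and gp120 B high. Control A exceeded control B for 73 of the 75 genes and gp120 A exceeded gp120 B for 11. Over the group means 56 were higher with a median of 0.125, which was 0.40 without control A and -0.15 without control B. Genes of oxidative phosphorylation were lower in 33 of 51 cases (median -0.07), with -0.26 in pair A and 0.01 in pair B. The scatter of the 2 pairs shows the ribosomal genes in the upper left and the interferon-stimulated genes mostly in the lower left.

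**Figure D4:**
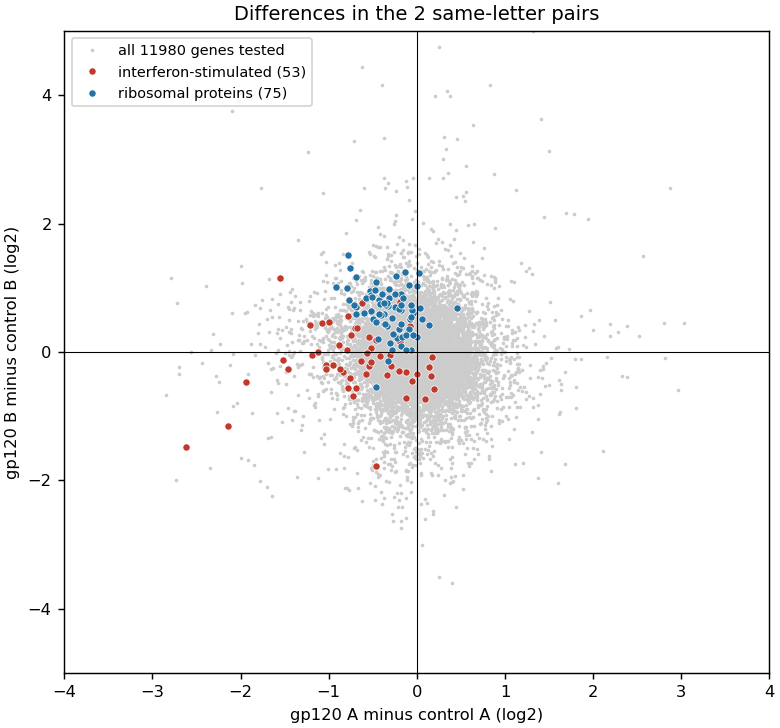
Difference of gp120 B minus control B (vertical axis, log2) against gp120 A minus control A (horizontal axis, log2) for all 11980 genes tested (grey), with 53 interferon-stimulated genes in red and 75 ribosomal protein genes in blue. Of the red genes 30 lie below 0 on both axes and 0 above 0 on both, 67 of the blue genes lie below 0 in pair A and above 0 in pair B, and 7 genes fall outside the axes.

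Among genes outside these groups, those with the smallest p-values, no overlap and the same sign in both pairs were described next; apart from ZNF131 they read below the 75th percentile on every array. Lower were UEVLD (difference -0.79, SE 0.18), whose protein has a ubiquitin-conjugating domain, the zinc finger protein ZNF131 (-0.84, SE 0.21), the ubiquitin peptidase family member USP50 (-0.67, SE 0.18), C25H16orf11 (-0.75, SE 0.20) and FAM76B (-0.88, SE 0.24). ZNF131 read 1.35 and 1.36 in the controls and 0.68, 0.26 and 0.62 with gp120, lower on both of its probes (unadjusted p = 0.00477). UEVLD had the smallest p of these, 0.0026, at -1.585 and -1.35 against -2.27, -2.32 and -2.18. Higher were GOLGA1 (0.84, SE 0.20), a golgin that tethers vesicles at the trans-Golgi, CD164L2 (0.855, SE 0.23), GRK4 (1.175, SE 0.325), KIAA0100 (0.845, SE 0.24) and ELK1 (0.68, SE 0.20), a transcription factor that carries ERK signals to immediate-early genes. GRK4, a kinase that desensitizes G protein-coupled receptors, read -4.50 and -4.34 in the controls and -3.26, -3.07 and -3.41 with gp120. Every gp120 array lay at least 2-fold above the mean of the controls, with pair differences of 1.24 and 1.27. KIAA0100 was less even, at 1.08 in pair A and 0.35 in pair B.

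Some genes were well above background in 1 group only, which bounds the fold. IGFBPL1, an IGF-binding protein-like gene, was not well above background in either control and read -3.80, -2.87 and -1.26 in gp120 A, B and C. It was at least 6.115-fold higher, counting each control at its own signal or at the lowest signal well above background on its array, whichever was higher. Without gp120 C the bound was 3.79-fold. SYT12, a synaptotagmin, was at least 2.325-fold higher and the mitochondrial carrier SLC25A35 at least 1.605-fold higher, although for SLC25A35 gp120 A lay below control A. In the other direction the acid-sensing ion channel ASIC1 was not well above background on any gp120 array and read -2.30 and -4.69 in the controls, at least 2.61-fold lower with gp120. The ASIC1 bound rested on control A and was 1.14-fold without it, against 5.96-fold without control B. The olfactory receptor gene OR9G10 was at least 1.83-fold lower. The microRNA gene MIR2324, at -3.30 and -4.37 in the controls and -4.855, -4.60 and -4.66 with gp120, was at least 1.82-fold lower, or 1.26-fold without control A. The bounds leave out the spread between arrays, and the adjusted p of each of the 6 was 0.998 in limma.

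For genes chosen for their place in glial function or barrier stress, differences ran from -0.20 in VEGFA to 0.48 in ICAM1. Their unadjusted p-values in limma were 0.181 or more, and with these SEs a small difference is not shown either. GLUL read 6.35 and 6.10 in the controls and 5.996, 6.13 and 6.63 with gp120 (difference 0.03, SE 0.29), and the intermediate filament VIM 7.56 and 6.92 against 7.25, 7.61 and 7.24 (difference 0.13, SE 0.24). VEGFA, the main angiogenic and permeability factor, differed by -0.20 (SE 0.19), the tight junction scaffold TJP1 by 0.03 (SE 0.30) and the heme oxygenase HMOX1 by 0.06 (SE 0.39). The adhesion molecule ICAM1 read 0.93 and 0.545 against 0.93, 0.91 and 1.81 (difference 0.48, SE 0.32, on 2 of its 3 probes), and was highest in gp120 C. For all 6 the gp120 and control arrays overlapped. Müller glia markers as a list were higher in 16 of 20 cases (median 0.14), with medians of -0.25 in pair A and 0.21 in pair B. Junction and barrier genes were higher in 15 of 21 cases (median 0.25), from CLDN1 at -0.89 to GJA1 at 2.12. Without control A that median was -0.02, with 8 of 21 higher.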

How the data were processed

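Spot intensity was deposited as scanner output of Agilent Feature Extraction (version 11.5.1.1 per the file headers), with background subtracted, each array detrended, surrogate values near background and no scaling between arrays. The log2 values in the deposited table stand per gene name, and the sources used here do not say how they were computed. They lay within 0.02 of the scanner values, after a shift per array, for 98.0% and 97.8% of genes on gp120 B and C but for 8.5% to 15.1% on control A, control B and gp120 A, so that table served for comparison only.

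Here the log2 of each processed signal was taken relative to the 75th percentile of its array. Control spots and 6 to 37 outlier spots on each of the 5 arrays were left out; 0 spots were saturated. Of 51282 probes, 30477 passed the filter on dim probes (well above background on all arrays of 1 of the groups), 6644 of them with no gene name; 785 genes passed through the controls alone and 89 through gp120 alone. Names came from accessions (29887 probes), symbols (5519) or synonyms (159) of RefSeq genes (ARS-UCD2.0, names only), from other probes of an older symbol (68) or from the files (511). The probe with the highest mean stood for a gene, and 6963 genes had over 1. For 161 probes the accession was followed where the file's symbol named another gene.

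The test was limma's (version 3.58.1, under R 4.3.3; lmFit, then eBayes) on group means of all 8 arrays, two-sided, with Benjamini-Hochberg adjustment over all genes and a threshold of 0.05. The pairs have 1 array a side and so no error. The number of arrays limits the precision. The steps were tested on simulated data. Lists (36) were described by counts and medians, with no test. Named were genes past the threshold, of which there were 0; the 6 non-overlapping genes with the smallest p in each direction; the 3 largest bounds in each direction; the 4 members with the smallest p of the 3 highest and 3 lowest lists of at least 8 members other than cell type markers; and 12 fixed genes. Any other gene given was picked after its values were seen. Members and lists were chosen with earlier results of these data known. Same-letter arrays of different groups deviated together (r of 0.37 to 0.75 over 7 pairs, against -0.66 to 0.425 over 14 pairs of different letters). Letters were taken as pairs on these values and not on the labels, but the ranges overlap. Control B had an r of 0.366 with gp120 B, 0.402 with gp120 C and 0.425 with TAT C, so pair B is not set apart. The deviations of 2 controls mirror each other, so negative values with 1 control follow from positive ones with the other. Alternatives were each array left out, letter and scan as blocks, the 5 arrays alone, normexp with an offset of 50, quantile normalization, the deposited table, a stricter and no filter, and the mean of probes. Promoter sequences were not analysed here, and some genes are not reported here. Counts and medians were computed in pandas 2.3.3 under Python 3.11.15, and plots drawn in matplotlib 3.10.9.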

Additional observations from a re-analysis of the deposited data

How the results depend on the processing

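Of 11980 genes, 0 passed the adjusted threshold in the fit reported and under all alternatives but a pair of them. Leaving out 1 array gave 0 to 1, and the deposited table gave 4. The genes at an unadjusted p under 0.05, 335 in the fit reported, ranged from 156 to 1165 with 1 array left out. They were 718 with letter as a replicate block, 125 with scan as a block, 196 with the 5 arrays alone and 583 with no filter on dim probes, and within 1.5 times of 335 under the other alternatives. The 53 named genes kept their direction with the 5 arrays alone, no filter and the mean of probes, as did the 44 that passed the stricter filter. Under other alternatives some turned. With scan as a block these were CDC6 (-0.14), MCM3 (-0.05), MCM6 (-0.0011), MCM5 (-0.04), CXCL8 (0.16), IL6 (0.42), TNF (0.43), IL1B (0.99), GLUL (-0.23) and TJP1 (-0.27). With both blocks they were CD59 (-0.05), CDC6 (-0.0041), ICAM1 (-0.0092), GLUL (-0.19), VIM (-0.13) and TJP1 (-0.05). With the replicate block alone they were GLUL (-0.15) and HMOX1 (-0.03), and the block changed no adjusted call. Quantile normalization turned GLUL (-0.02) and HMOX1 (-0.02), normexp TJP1 (-0.09), and the deposited table VEGFA (0.52), TJP1 (-0.52) and HMOX1 (-0.0016). With 1 array left out, 7 genes crossed 0: CCL2 (-1.17 to 0.03), IL6 (-1.88 to 0.97), IL1B (-2.28 to 0.21), GLUL (-0.16 to 0.15), VIM (-0.19 to 0.45), TJP1 (-0.35 to 0.41) and HMOX1 (-0.12 to 0.34). The cause was not tested. Genes near background carry the least precise values: the lowest signal well above background was -5.51 to -4.61 on the log2 scale. The bounds with 1 array left out, an alternative chosen after seeing the data, ran from 1.14 to 5.96-fold for ASIC1, 1.26 to 2.65-fold for MIR2324, 1.45 to 2.31-fold for OR9G10, 3.79 to 9.13-fold for IGFBPL1, 1.89 to 2.86-fold for SYT12 and 1.35 to 1.92-fold for SLC25A35.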

Other observations

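The connexin gene GJA1, which codes for the main gap junction protein of glia, read -3.14 and -1.68 in control A and B and -3.54, 2.48 and 0.18 in gp120 A, B and C. Its difference was 2.12 (SE 1.59, unadjusted p = 0.221 in limma), and it was singled out after its values were seen. It was lower in pair A and far higher in pair B. The class II antigen-loading gene BOLA-DMB read 0.76 and 0.10 against 1.635, 0.48 and 2.455 (difference 1.09, SE 0.585), the highest of the antigen presentation list.

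The deposited value table gave 4 genes past an adjusted p of 0.05 in limma: SYVN1 (difference 4.33), SPSB1 (3.19), NCAPD2 (2.18) and DNAI3 (-2.16). In the scanner values of the same arrays the differences were 0.035, -0.16, 0.02 and -0.95. Without control A the scanner values gave 1 gene, ZNF362, at -6.61 (adjusted p = 0.0231), against -3.30 with all arrays. ZNF362 read -0.36 in control A and 6.28 in control B and between -0.59 and -0.04 with gp120, and 1 of its 2 probes had this direction. It has 1 control array in that fit, whose spread was taken from the other groups.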
